A study of Arabidopsis thaliana with 27 samples.

Results

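The 7 genes described here are the seed maturation regulators ABI3 (AT3G24650), FUS3 (AT3G26790), LEC1 (AT1G21970), LEC2 (AT1G28300), L1L (AT5G47670, listed as NF-YB6 in the files), VAL1 (AT2G30470, listed as HSI2) and VAL2 (AT4G32010, listed as HSL1) of Arabidopsis thaliana. They were chosen by name and locus, as 7 of the 33612 rows of a raw count table. Of these 7, ABI3, FUS3, VAL1 and VAL2 had enough counts to be tested, among 20465 genes tested in all. LEC1, LEC2 and L1L fell under the count filter and are given as counts. The study addressed how the noncoding RNA HID1 acts in germination that depends on phytochrome B, the red light receptor. Poly(A) RNA was sequenced from seeds of the wild type Col-0 (WT), the hid1 mutant and the phyB mutant at 12, 24 and 48 h, with 3 biological replicates in each of the 9 groups, 27 libraries in all. In all 9 groups the seeds were imbibed in white light, given a red pulse, which puts phytochrome B into its active form, and kept in darkness until harvest. The labels name no mutant allele, no transgene and no pooling, and whole seeds were used, so embryo, endosperm and seed coat were sequenced together.

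During seed development LEC1, ABI3, FUS3 and LEC2 switch on the maturation programme, in which the embryo stores protein and oil, becomes tolerant of drying and enters dormancy. ABI3, FUS3 and LEC2 carry a B3 domain that binds the RY element, spelled CATGCA, whereas LEC1 and its relative L1L are NF-YB subunits of the trimeric NF-Y factor. VAL1 and VAL2 carry a B3 domain too, but act as repressors: they bind RY elements and bring histone deacetylases and Polycomb complexes to the maturation regulators, which are silenced as the seedling forms. ABI3 is also the member through which abscisic acid (ABA) keeps mature seeds from germinating.

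In the TAIR10.1 reference genome ABI3 spans chr3:8997370-9001185 on the plus strand with 6 exons, and FUS3 spans chr3:9853828-9856212 on the minus strand with 6 exons. VAL1 lies at chr2:12980428-12985277 on the minus strand with 12 exons. VAL2 lies at chr4:15479379-15485354 on the plus strand with 16 exons, and the noncoding RNA gene AT4G08635 is annotated on the opposite strand within it. The NF-YB genes LEC1 (chr1:7727577-7729649, minus strand) and L1L (chr5:19314778-19316169, plus strand) have 2 exons each, and LEC2 (chr1:9896867-9899876, minus strand) has 6. L1L overlaps the protein-coding genes AT5G47660 and AT5G47680. No source used here states how the counting treated strand, so reads of L1L or VAL2 cannot be told apart from those of the genes that overlap them. The 250 bases before the annotated start of FUS3, VAL1 and ABI3 are shown because the B3 factors bind RY elements. These genes are the tested members with the largest differences at 48 h. Capitals mark each RY element, read as CATGCA on either strand. The bases are from the RefSeq TAIR10.1 genome, 5′ to 3′ on the strand of the gene.
FUS3, chr3:9856213-9856462, minus strand: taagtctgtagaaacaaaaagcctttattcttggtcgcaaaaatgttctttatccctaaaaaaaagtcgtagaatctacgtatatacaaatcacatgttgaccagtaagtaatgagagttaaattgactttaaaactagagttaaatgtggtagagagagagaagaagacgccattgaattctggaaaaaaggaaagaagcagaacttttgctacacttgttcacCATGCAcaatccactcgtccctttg
VAL1, chr2:12985278-12985527, minus strand: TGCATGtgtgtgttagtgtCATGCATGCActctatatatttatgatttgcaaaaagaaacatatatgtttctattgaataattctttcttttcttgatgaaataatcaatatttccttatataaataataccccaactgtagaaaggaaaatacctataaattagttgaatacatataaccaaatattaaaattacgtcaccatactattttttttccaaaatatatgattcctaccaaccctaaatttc
ABI3, chr3:8997120-8997369, plus strand: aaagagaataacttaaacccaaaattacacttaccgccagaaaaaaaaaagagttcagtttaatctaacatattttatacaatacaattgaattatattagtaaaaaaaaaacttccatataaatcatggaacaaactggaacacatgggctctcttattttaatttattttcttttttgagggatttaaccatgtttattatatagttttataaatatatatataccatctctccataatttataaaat

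FUS3 held 1 RY element, 25 bases before its start. VAL1 held 4, beginning 250, 231, 229 and 227 bases before its start, of which the last 3 overlap one another. ABI3 held none in this window, and neither did LEC1, LEC2, L1L or VAL2, so 2 of the 7 genes had one. Of 27443 protein-coding genes, 8.43% had an RY element in the 250 bases before the start and 1.66% had at least 2. In a window that also took in the 50 bases after the start, 3 of the 7 genes (LEC1, VAL1 and FUS3) and 9.72% of all promoters had one. The letters ACGTG, searched on either strand and part of the ABA response elements that bZIP factors such as ABI5 bind, were in 0 of the 7 windows of 250 bases and in 22.9% of all promoters. These matches describe letters in a window and are not sites of measured binding.

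Libraries held 14750212 to 26293148 counts. Levels are given as counts per 1000000 (CPM) after TMM scaling, and differences as log2 values from edgeR's quasi-likelihood test with Benjamini-Hochberg adjustment over all genes tested, where an adjusted p under 0.05 counts as passed. HID1 was nearly absent from hid1 seeds, with 2, 0 and 1 counts over the 3 libraries at 12, 24 and 48 h. The PHYB transcript remained in phyB seeds, at 56.7, 69.7 and 112 CPM against 117, 125 and 95.4 in WT. The phyB libraries labelled 12 h stood apart from the other libraries of that time: mitochondrial transcripts took 0.0178 to 0.0202% of their counts, a share within the range of the 9 libraries of 24 h (0.0151 to 0.028%) and below the other 12 h libraries (0.0764 to 0.16% in WT and hid1). Their summed level of 15 maturation target genes, 17939 to 19238 CPM, was near that of WT at 24 h (12239 to 16231), while the phyB libraries labelled 24 h held 85599 to 93684, above WT at 12 h (64992 to 68789.7). The phyB libraries labelled 24 h had a mitochondrial share as low, 0.0195 to 0.0246%, so exchanging the labels would not bring a phyB 12 h group into the range of the other 12 h libraries. As labelled, HID1 was at 18.9 CPM in phyB at 12 h and 10.9 at 24 h, against 24.5 and 15.9 in WT. Values of the 4 tested regulators that rest on phyB at 12 h or 24 h are therefore also given with these labels exchanged. At 48 h the cruciferin CRA1 alone took 12.1 to 13.1% of the counts in phyB and 0.419 to 0.738% in WT, so phyB levels at that time depend on the scaling. With scaling by total counts the median of all genes tested, phyB minus WT, moved from -0.24 to -0.92 on the log2 scale. A scaling shifts each gene and this median alike, so values relative to the median agree between scalings by construction.

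At 48 h the 4 tested regulators were called higher in both mutants than in WT, with larger log2 differences for the activators ABI3 and FUS3 than for the repressors VAL1 and VAL2. The VAL2 calls depend on the setting: in hid1 the call was lost in 5 of 13 alternatives, and in phyB total count scaling called VAL2 lower, by -0.30. At 12 h in hid1 1 of the 4 was lower, where 5.91% of all genes tested were lower and 13.4% passed in either direction. At 24 h 0 of 4 passed, also at an unadjusted p under 0.05 (the lowest was 0.0856, for VAL1) and under each of 13 alternatives, DESeq2 included, while 15.3% of all genes passed. At 48 h all 4 were higher in hid1, against 36.3% of all genes higher (79.2% in either direction). In phyB at 12 h 2 were higher and 1 lower, beside 30% and 34.2% of all genes (64.2% in either direction). At 24 h 3 were higher in phyB, beside 31.8% of all genes (66.4% in either direction), and at 48 h all 4 were higher, beside 40% (89.4%). With 4 genes, and with most genes called in several comparisons, the sizes below say more than these counts. The differences of both mutants are from the same 3 WT libraries at each time.

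**Figure D1:**
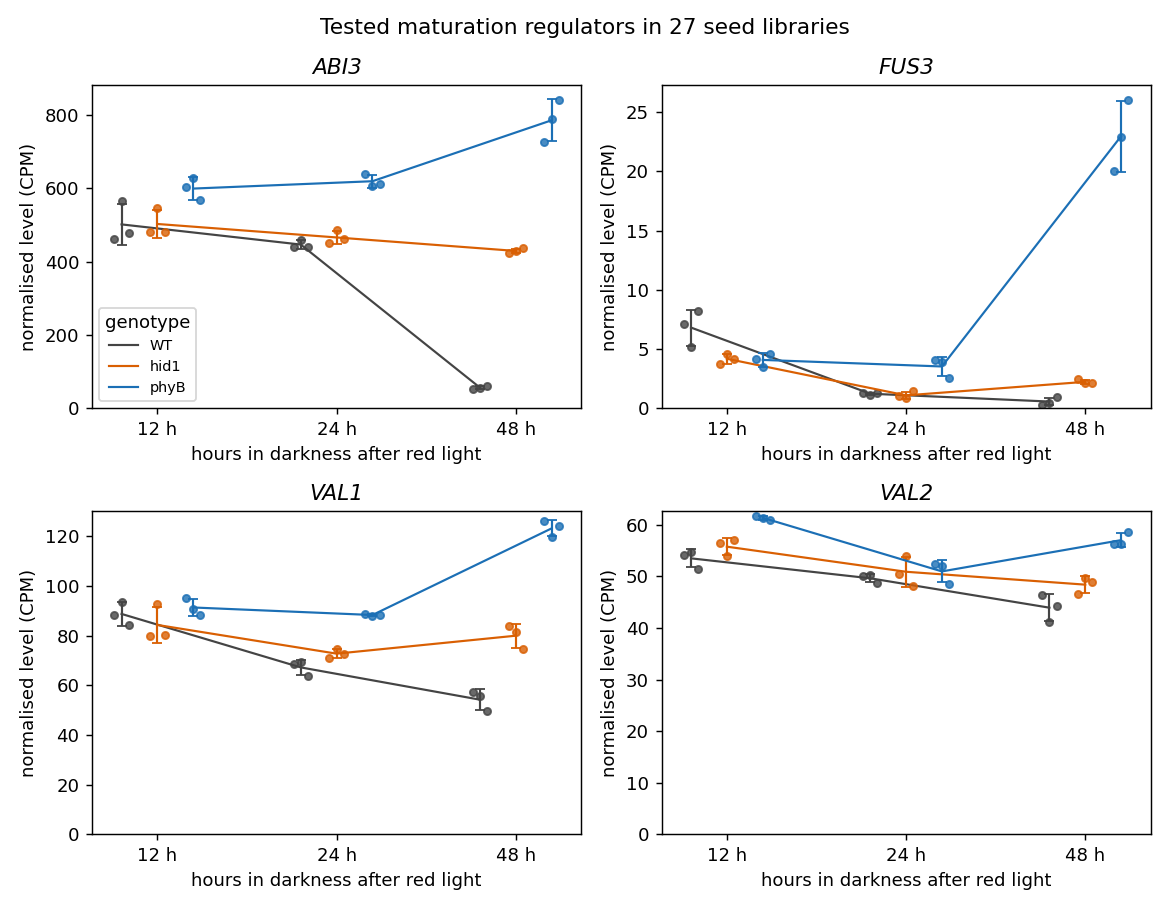
Normalised level (CPM, each axis starting at 0) of ABI3, FUS3, VAL1 and VAL2 by hours in darkness; points are libraries, lines join group means and bars show the SD of 3 replicates in WT (grey), hid1 (orange) and phyB (blue). ABI3 in WT drops to between 52.7 and 61.7 CPM at 48 h, while hid1 stays between 423 and 436 and phyB reaches 727 to 840.4.

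ABI3 had the highest level of the 7 genes, by far in 8 of the 9 groups and narrowly in WT at 48 h, where the authors' FPKM was 20.6 for ABI3 and 19.0 for VAL1. On the authors' FPKM scale, which divides by transcript length and so allows genes to be compared, ABI3 stood between 20.6 and 204 over the 9 groups, VAL1 between 19.0 and 29.9, VAL2 between 11.2 and 18.0, FUS3 between 0.437 and 10.7 and L1L between 0.128 and 0.448. In 8 of the 9 groups ABI3 exceeded 97.4 to 98.8% of 26921 protein-coding genes, and in WT at 48 h it exceeded 76.8%.

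In WT, ABI3 was at 463, 565 and 477 CPM in the 3 libraries at 12 h and at 439, 460.2 and 441 at 24 h, and at 52.7, 56.0 and 61.7 at 48 h. All 3 libraries at 48 h lay far below every other library of the series. The fall from 24 h to 48 h was -2.98 ± 0.08 (SE, n = 3 per group, adjusted p = 6.99e-22), to a level 7.87-fold lower. Between 12 h and 24 h the value was -0.17 ± 0.07 (adjusted p = 0.0492), a call lost in 8 of 13 alternative fits and turned to 0.12 by scaling by total counts.

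In hid1 seeds ABI3 stood at 480.5, 546 and 482 CPM at 12 h, at 450.3, 486 and 462 at 24 h and at 423, 429 and 436 at 48 h. The libraries of 12 h and 24 h overlapped, and those of 48 h lay just below both, with no passed change between 24 h and 48 h (-0.12 ± 0.07, adjusted p = 0.172). Against WT, ABI3 did not pass at 12 h (0.00, 95% interval -0.15 to 0.16) or at 24 h (0.06, interval -0.09 to 0.21). At 48 h hid1 was higher by 2.92 ± 0.08 (adjusted p = 1.93e-21), a 7.56-fold difference of means, 429 ± 6.04 against 56.8 ± 4.56 CPM (SD, n = 3). The hid1 difference from WT was larger at 48 h than at 24 h by 2.86 ± 0.11 (edgeR interaction contrast, adjusted p = 1.45e-17).

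In phyB seeds ABI3 stood at 603, 628 and 567 CPM at 12 h, at 640.0, 607 and 611 at 24 h and at 727, 789 and 840.4 at 48 h. These were the 9 highest libraries for ABI3, and those of 48 h lay above all others. ABI3 was higher than in WT by 0.26 ± 0.07 at 12 h (adjusted p = 0.00355), 0.47 ± 0.07 at 24 h (adjusted p = 2.86e-06) and 3.79 ± 0.08 at 48 h (adjusted p = 1.54e-24). With the labels of phyB at 12 h and 24 h exchanged, the first 2 of these were 0.30 and 0.42, and with scaling by total counts the values were 0.40, 0.24 and 3.11. Relative to the median of all genes tested, ABI3 in phyB at 48 h was 4.04 above WT with TMM and, near it by construction, 4.03 with total counts. From 24 h to 48 h ABI3 rose in phyB by 0.34 ± 0.07 (adjusted p = 0.000212), but with scaling by total counts the value was -0.14, so no direction holds across scalings. The authors' FPKM, which is not a check apart from these scalings, was 198 at 24 h and 178 at 48 h. Relative to the median of all genes the change from 24 h to 48 h was 0.34 with TMM and 0.32 with total counts, which agree by construction and do not settle the direction. With the labels exchanged the TMM value of the rise was 0.39. Between 12 h and 24 h ABI3 in phyB did not pass (0.05 ± 0.07).

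Between the mutants, ABI3 was lower in hid1 than in phyB by -0.25 ± 0.07 at 12 h, -0.41 ± 0.07 at 24 h and -0.87 ± 0.07 at 48 h (adjusted p = 0.00398, 2.12e-05 and 2.17e-11). With scaling by total counts these were -0.42, -0.24 and -0.20, and all 3 still passed. With the phyB labels exchanged the first 2 were -0.30 and -0.36. In these comparisons of hid1 with phyB, 2 of the 4 tested genes were lower at 12 h, 3 at 24 h and 4 at 48 h, and 0 were higher. Of all genes, 29.5%, 31.5% and 37.9% were lower at these times (63.4%, 65.8% and 78.9% in either direction).

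**Figure D2:**
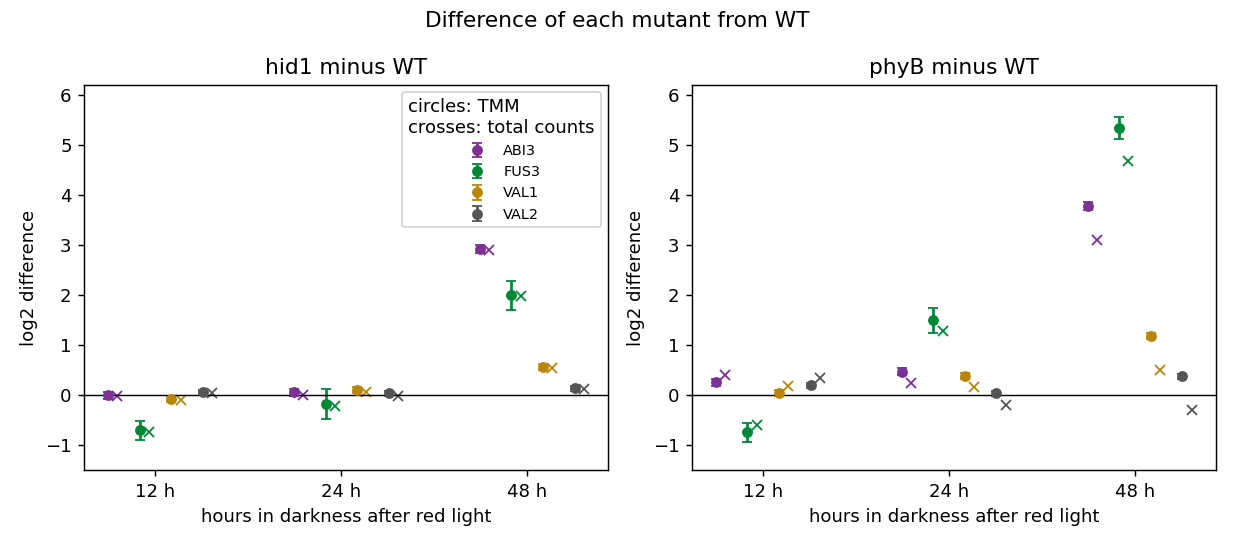
Log2 difference of hid1 (left) and phyB (right) from WT by hours in darkness for ABI3, FUS3, VAL1 and VAL2, n = 3 per group; circles with SE bars are the TMM fit and crosses the same fit scaled by total counts. At 48 h the ABI3 circle stands at 2.92 in hid1 and 3.79 in phyB, and the VAL2 cross in phyB stands below 0, at -0.30.

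FUS3, which drives storage protein genes and ABA accumulation in the developing seed, was present at a far lower level and had another course. In WT it was at 7.11, 5.18 and 8.18 CPM at 12 h, at 1.28, 1.16 and 1.30 at 24 h and at 0.323, 0.484 and 0.948 at 48 h, so no library overlapped between times. It fell by 2.45 on the log2 scale from 12 h to 24 h (SE 0.22, adjusted p = 2.12e-10), when the value for ABI3 was -0.17, and by 1.14 from 24 h to 48 h (SE 0.33, adjusted p = 0.0025). Of the tested regulators 3 fell in WT from 12 h to 24 h and 4 from 24 h to 48 h, where 32.4% and 38% of all genes fell (65.5% and 82.3% passed in either direction).

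In hid1 seeds FUS3 was at 3.75, 4.63 and 4.2 CPM at 12 h, at 1.02, 0.852 and 1.45 at 24 h and at 2.46, 2.14 and 2.14 at 48 h. It lay below all WT libraries at 12 h, overlapped WT at 24 h and lay above all WT libraries at 48 h. The 12 h difference was -0.70 ± 0.19 (adjusted p = 0.0111) and did not pass without the third WT library (-0.56, adjusted p = 0.0767) or without the first hid1 library (-0.63, adjusted p = 0.0565). At 24 h the value was -0.17 ± 0.30 (interval -0.79 to 0.46), and at 48 h it was 2.00 ± 0.29 (adjusted p = 5.66e-07), a 3.84-fold difference of means that rests on 145 counts in hid1 and 44 in WT over 3 libraries each. FUS3 fell by 1.91 in hid1 from 12 h to 24 h (SE 0.25, adjusted p = 2.13e-07) and then rose by 1.02 ± 0.27 to 48 h (adjusted p = 0.00201). It was the 1 tested regulator of 4 to pass in hid1 between 24 h and 48 h, where 31.5% of all genes rose and 59.8% passed. From 12 h to 24 h, 3 of the 4 fell in hid1, where 28.9% of all genes fell and 58.9% passed.

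In phyB seeds FUS3 was at 4.18, 3.50 and 4.61 CPM at 12 h, at 4.10, 3.93 and 2.60 at 24 h and at 20.0, 22.9 and 26 at 48 h. The libraries of 12 h and 24 h overlapped, and those of 48 h were the highest of the series, above all WT libraries at 12 h. Against WT, FUS3 was lower at 12 h (-0.74 ± 0.19, adjusted p = 0.00125), higher at 24 h (1.5 ± 0.25, adjusted p = 6.81e-06) and higher at 48 h (5.34 ± 0.22, adjusted p = 8.44e-19). With the phyB labels exchanged the first 2 values were -0.95 and 1.71. At 48 h the means were 23.0 ± 3 and 0.585 ± 0.325 CPM (SD, n = 3), 39.3-fold apart. Relative to the median of all genes the difference was 5.59 with TMM and, by construction, with total counts. The rise from 24 h to 48 h was 2.70 ± 0.18 (adjusted p = 3.06e-13), or 2.49 with the labels exchanged. In phyB from 24 h to 48 h all 4 tested regulators were called higher, against 31% of all genes (61.7% in either direction), and from 12 h to 24 h VAL2 alone was called, lower, where 27.2% of all genes were lower and 54.9% passed.

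FUS3 did not differ detectably between the mutants at 12 h (hid1 minus phyB 0.03, interval -0.38 to 0.45, or 0.24 with the labels exchanged and -0.13 with total counts, neither of which passed). It was lower in hid1 by -1.67 ± 0.26 at 24 h (adjusted p = 2.45e-06, -1.88 with the labels exchanged) and by -3.35 ± 0.18 at 48 h (adjusted p = 1.28e-15). At 48 h the 2.25 ± 0.185 CPM of hid1 stood between WT and phyB, with no overlap.

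LEC2, the third B3 activator, which can start embryo formation when expressed in leaves, was at the limit of detection, with 17 counts in all 27 libraries. WT at 24 h had 2, 2 and 2 counts, hid1 at 24 h had 0, 2 and 1, WT at 48 h had 2, 0 and 0, and hid1 at 48 h had 3, 2 and 1. All libraries at 12 h and all 9 phyB libraries had 0. Over the 3 libraries, 6 counts in WT at 24 h correspond to 0.0969 CPM (95% exact Poisson interval 0.0356 to 0.211). The 0 counts in phyB at 24 h allow up to 0.061 CPM (3 counts), or 0.075 CPM by the same kind of interval. These limits cover counting error only, as reads without molecular identifiers are not independent molecules. The main fit did not test LEC2, and no difference of LEC2 between phyB and WT is given. In an edgeR fit without the count filter LEC2 in hid1 did not pass against WT at 24 h (-0.87 ± 1.07, adjusted p = 0.764) or 48 h (1.63 ± 1.12, adjusted p = 0.224).

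LEC1, the NF-YB subunit that acts at the head of the maturation network, had 2 counts in 27 libraries, 1 in a WT library and 1 in a hid1 library, both at 24 h. The other 25 libraries had 0. In the phyB group at 48 h, where FUS3 was highest, 0 counts of LEC1 over 3 libraries allow up to 0.071 CPM.

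L1L, the second NF-YB subunit, was counted in every library, at 1 to 12 reads and 146 in all. WT had 8, 10 and 13 counts over 3 libraries at 12, 24 and 48 h, hid1 had 16, 12 and 17, and phyB had 22, 17 and 31. At 48 h the phyB libraries stood at 0.602 to 0.821 CPM, above those of WT at 0.135 to 0.179 and of hid1 at 0.146 to 0.382. In a fit without the count filter, over 27979 genes, L1L in phyB was above WT by 1.56 ± 0.59 at 12 h (adjusted p = 0.0248), 1.04 ± 0.59 at 24 h (adjusted p = 0.161) and 2.04 ± 0.49 at 48 h (adjusted p = 0.000191). The phyB labels were not exchanged in this fit. It used TMM scaling only, and L1L was not tested with total counts, although phyB levels at 48 h depend on the scaling. In the same fit hid1 did not pass against WT at any time (adjusted p = 0.472, 0.96 and 0.36), and at 48 h it was below phyB by -1.41 ± 0.47 (adjusted p = 0.00736). Because 2 protein-coding genes overlap L1L, it was not shown that these few reads come from L1L itself.

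**Figure D3:**
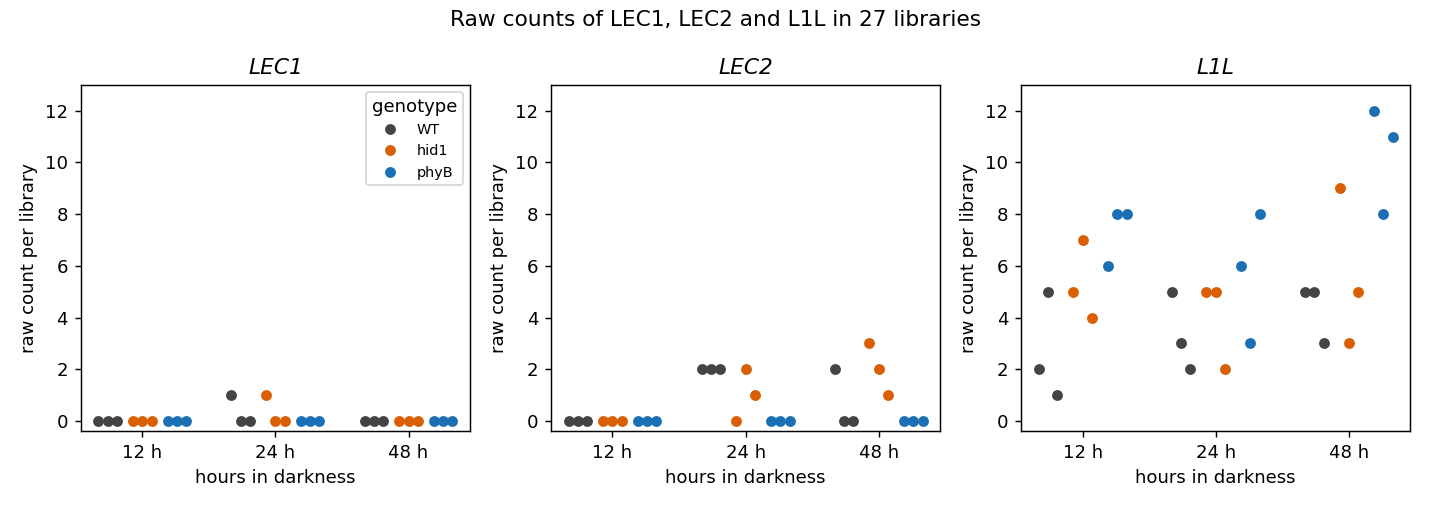
Raw counts of LEC1, LEC2 and L1L in each of the 27 libraries by hours in darkness, in WT (grey), hid1 (orange) and phyB (blue). LEC1 is at 0 in 25 libraries, LEC2 is at 0 in all 9 phyB libraries, and L1L lies between 1 and 12 counts.

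VAL1, the repressor that places the maturation genes under Polycomb silencing, was higher in both mutants at 48 h, as the activators were, but by less. In WT it was at 88.4, 93.7 and 84.1 CPM at 12 h, at 68.5, 69.4 and 63.7 at 24 h and at 57.3, 55.8 and 49.5 at 48 h, with no overlap between times. It fell by 0.40 from 12 h to 24 h and by 0.31 from 24 h to 48 h (SE 0.06 for both, adjusted p = 3.11e-06 and 7.32e-05), the first being -0.12 with total counts. In hid1 it was at 79.9, 92.8 and 80.2, at 71.0, 74.8 and 72.4, and at 83.8, 81.6 and 74.5 at the same times. The hid1 libraries overlapped WT at 12 h, lay just above at 24 h and clearly above at 48 h.

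Against WT, VAL1 in hid1 did not pass at 12 h (-0.07, interval -0.20 to 0.05) or at 24 h (0.11, interval -0.02 to 0.24), and was higher at 48 h by 0.56 ± 0.06 (adjusted p = 6.47e-09), a 1.48-fold difference. In phyB seeds VAL1 was at 95, 90.8 and 88.2 CPM at 12 h, at 88.6, 88.1 and 88.2 at 24 h and at 126, 119.6 and 124 at 48 h. It overlapped WT at 12 h (0.04 ± 0.06, adjusted p = 0.591), where the value was -0.01 with the labels exchanged and 0.19 with total counts, which passed (adjusted p = 0.0017). It was higher at 24 h by 0.39 ± 0.06 (adjusted p = 4.03e-06, 0.44 with the labels exchanged and 0.17 with total counts) and at 48 h by 1.18 ± 0.06 (adjusted p = 4.02e-16). With scaling by total counts the last value was 0.50, and relative to the median of all genes it was 1.43 under both scalings, by construction. The phyB rise from 24 h to 48 h, 0.48 ± 0.06, was 0.43 with the labels exchanged but -0.01 with total counts, and hid1 minus phyB at 48 h, -0.62 ± 0.06, was 0.05, so neither direction holds across scalings. Relative to the median of all genes hid1 minus phyB was -0.69 with TMM and -0.68 with total counts, which agree by construction and do not settle the direction. At 12 h VAL1 did not pass between the mutants (-0.12 ± 0.06, adjusted p = 0.112), but it passed in 5 of 13 alternatives, among them RLE scaling (-0.14, adjusted p = 0.044), DESeq2 (-0.14, adjusted p = 0.0432) and total counts (-0.28, adjusted p = 1.34e-05), and was -0.07 with the labels exchanged. At 24 h it was lower in hid1 by -0.28 ± 0.06 (adjusted p = 0.000324, -0.33 with the labels exchanged), or -0.11 with total counts (adjusted p = 0.0537). Within hid1, VAL1 fell by 0.21 from 12 h to 24 h (SE 0.06, adjusted p = 0.00499), but the value was 0.03 with total counts, and without the second hid1 library of 12 h it was -0.14 (adjusted p = 0.0712). From 24 h to 48 h it was 0.14 ± 0.06 (adjusted p = 0.0604) and passed in 5 of 13 alternatives.

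VAL2, the closest relative of VAL1, had the flattest course of the 4, with group means between 43.9 and 61.4 CPM. In WT it was at 54.2, 54.8 and 51.5 CPM at 12 h, 50, 50.2 and 48.7 at 24 h and 46.4, 41.2 and 44.2 at 48 h. In hid1 it was at 56.4, 53.9 and 57.0, at 50.5, 54.0 and 48.2, and at 46.6, 49.7 and 48.9. The hid1 libraries overlapped WT at 12 h and 24 h, and at 48 h the lowest hid1 library lay just above the highest WT library. VAL2 did not pass in hid1 at 12 h (0.06 ± 0.05) or 24 h (0.04 ± 0.05). Within WT it gave -0.11 ± 0.05 from 12 h to 24 h (adjusted p = 0.0705) and fell by 0.18 from 24 h to 48 h (SE 0.05, adjusted p = 0.00285), a call lost with RLE scaling (-0.07, adjusted p = 0.213) and DESeq2 (-0.07, adjusted p = 0.25). Within hid1 its value from 12 h to 24 h, -0.13 ± 0.05 (adjusted p = 0.0302), lost its call in 6 of 13 alternatives and turned to 0.11 with total counts. At 48 h it was higher by 0.14 ± 0.05 (adjusted p = 0.0157), a call lost with RLE scaling (0.06, adjusted p = 0.281), with DESeq2 (0.06, adjusted p = 0.337), with no count filter (0.11, adjusted p = 0.131), without the second WT library of 48 h (0.10, adjusted p = 0.121) and without the second hid1 library (0.12, adjusted p = 0.0592).

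In phyB seeds VAL2 was at 61.7, 61.4 and 61.0 CPM at 12 h, at 52.4, 52.0 and 48.5 at 24 h and at 56.3, 56.2 and 58.6 at 48 h. The 12 h libraries were the highest of the series. VAL2 was above WT at 12 h by 0.20 ± 0.05 (adjusted p = 0.0016), but by -0.07 with the labels exchanged, and its value at 24 h, 0.04 ± 0.05 (adjusted p = 0.545), became 0.31 with the labels exchanged and -0.19 with total counts. At 48 h it was above WT by 0.38 ± 0.05 (adjusted p = 1.73e-07), and below WT by -0.30 with total counts (adjusted p = 3.73e-05), where 29.1% of the genes called were higher against 44.8% with TMM. Relative to the median of all genes tested it was 0.62 above under both scalings, which agree by construction and do not settle the direction. The authors' FPKM of VAL2 was lowest in this group, at 11.2, against 13.8 in WT at 48 h. From 12 h to 24 h VAL2 fell by 0.27 in phyB (SE 0.05, adjusted p = 8.67e-05), which is 0.27 upward with the labels exchanged. From 24 h to 48 h its value was 0.16 ± 0.05 (adjusted p = 0.00963), but -0.32 with total counts and -0.11 with the labels exchanged. Between the mutants VAL2 was lower in hid1 at 12 h (-0.14 ± 0.05, adjusted p = 0.0224) and at 48 h (-0.24 ± 0.05, adjusted p = 0.000194), but 0.13 with the labels exchanged at 12 h and 0.43 with total counts at 48 h. None of these 4 directions of VAL2 held in every setting run.

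The difference between each mutant and WT was itself compared between times. From 24 h to 48 h the hid1 difference grew for FUS3 by 2.16 ± 0.43 (adjusted p = 8.26e-05) and for VAL1 by 0.45 ± 0.09 (adjusted p = 9.86e-05), beside that of ABI3 given above, and did not pass for VAL2 (0.10 ± 0.07, adjusted p = 0.221). This contrast passed for 62.6% of all genes tested, and 30.5% passed upward. From 12 h to 24 h 0 of the 4 passed for hid1 with edgeR, where 13.9% of all genes did, while VAL1 (0.19 ± 0.09) had an unadjusted p of 0.0449 and passed in 1 of 19 alternatives. The phyB difference grew from 24 h to 48 h by 3.32 ± 0.11 for ABI3, 3.84 ± 0.38 for FUS3, 0.79 ± 0.09 for VAL1, or 0.34 with total counts, and 0.34 ± 0.07 for VAL2 (upward for 35.4% of all genes, 71.9% in either direction), and VAL2 was at -0.11 with total counts. With the labels exchanged these were 3.37, 3.63, 0.74 and 0.07, the last not passing. From 12 h to 24 h it grew for FUS3 by 2.24 ± 0.31 and for VAL1 by 0.35 ± 0.09, the latter at -0.02 with total counts (upward for 30.3% of all genes, 61.5% in either direction). It did not pass for ABI3 (0.21 ± 0.10, adjusted p = 0.0778, or -0.16 with total counts), which passed in 1 of 19 alternatives. Nor did it pass for VAL2 (-0.16 ± 0.07, adjusted p = 0.0642). VAL2 passed downward in 4 of 19 alternatives, among them total counts (-0.53), and was 0.38 with the labels exchanged.

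Ordered by level, the 3 phyB groups led for ABI3, those of 24 h and 12 h overlapping each other, and below them came hid1 and WT at 12 h and then at 24 h, whose libraries overlapped from each group to the next. The 48 h hid1 group lay just under WT at 24 h, and WT at 48 h came last, 2.92 log2 units below it. For FUS3 the order was phyB at 48 h, then WT at 12 h, then hid1 and phyB at 12 h and phyB at 24 h, which overlapped from each to the next, then hid1 at 48 h, then WT and hid1 at 24 h and WT at 48 h. For VAL1 phyB at 48 h came first and WT at 24 h and 48 h came last, each without overlap, and the 6 groups between them overlapped from each to the next. For VAL2 only the first step, from phyB at 12 h to phyB at 48 h, and the last, from hid1 to WT at 48 h, had no overlap. WT at 48 h was the lowest group for all 4 genes.

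Over the 27 libraries, with 11579 genes of at least 10 CPM on average, the genes whose log2 CPM followed ABI3 most closely were SOM (Pearson r = 0.985), a zinc finger gene that restrains germination, LEA4-5 (0.983), a late embryogenesis abundant protein, BGLU11 (0.980), a beta glucosidase, and AT5G50360 (0.980). SOM fell from 440.2 to 53.7 CPM between 24 h and 48 h in WT and LEA4-5 from 1237 to 87.7. VAL1 was followed by AT2G42030 (0.980), RS31 (0.978), ELF9 (0.974) and AT5G17900 (0.972), and VAL2 by EMB2770 (0.936), ALAAT2 (0.917), GTA2 (0.917) and NAC052 (0.915). Correlations above 0.9 were common for VAL1 (544 genes) and ABI3 (315) and rare for VAL2 (14). Among the regulators r was 0.917 for FUS3 with VAL1, 0.799 for ABI3 with VAL1, 0.737 for VAL1 with VAL2, 0.715 for ABI3 with VAL2, 0.703 for ABI3 with FUS3 and 0.683 for FUS3 with VAL2. The libraries share their scaling, their depth and the 9 groups, so these values describe a shared course over groups only.

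The maturation target genes, 15 genes for storage proteins, oil body proteins and drying tolerance that the B3 activators switch on, were all tested. In hid1 at 24 h, when none of the 4 regulators passed, 12 of the 15 were higher and none lower (median 1.22, all genes 0.00), led by the 2S albumin genes SESA4 (4.04 ± 0.46), SESA1 (2.93 ± 0.37), SESA3 (2.85 ± 0.44) and SESA2 (2.71 ± 0.31), tandem copies between which the counting could split reads. Of all genes tested, 15.3% passed in hid1 at 24 h. At 48 h all 15 were higher in hid1 (median 2.90, all genes -0.06) and all 15 in phyB (median 5.55, all genes -0.24, or 4.86 with total counts). Of all genes, 36.3% were higher in hid1 at 48 h (79.2% in either direction) and 40% in phyB (89.4%). In phyB at 12 h 13 were lower (median -1.30), while with the labels exchanged 5 were higher and 2 lower (median 0.35). As labelled, 34.2% of all genes were lower in phyB at 12 h (64.2% in either direction). At 24 h all 15 were higher in phyB (median 2.68), and 12 with the labels exchanged (median 1.24). As labelled, 31.8% of all genes were higher in phyB at 24 h (66.4% in either direction). In hid1 from 24 h to 48 h the median of the 15 was 0.00, with 4 higher and 5 lower, over the interval in which FUS3 rose. In that comparison 59.8% of all genes passed. In WT 14 of the 15 fell from 12 h to 24 h (median -2.71), when the values of FUS3 and ABI3 were -2.45 and -0.17. From 24 h to 48 h 10 fell (median -1.98), when the values of FUS3 and ABI3 were -1.14 and -2.98. Of all genes, 32.4% and 38% fell over these intervals in WT (65.5% and 82.3% passed in either direction).

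Among genes of the silencing machinery with which VAL proteins work, 16 of 18 were tested. At 48 h 9 were higher and 5 lower in hid1 (median 0.17, all genes -0.06), and 8 were higher and 5 lower in phyB (median 0.25, all genes -0.24), but 6 and 9 in phyB with total counts (median -0.43). Calls at 48 h were common, 79.2% of all genes in hid1 and 89.4% in phyB, and the counts of this list and of those that follow are read beside these shares. CLF, a histone H3 lysine 27 methyltransferase of Polycomb complex 2, was lower in hid1 by -0.77 ± 0.07 and in phyB by -4.31 ± 0.10, with 65.0 CPM in WT, 38.2 in hid1 and 3.29 in phyB. RING1B, a ubiquitin ligase subunit of Polycomb complex 1, was higher by 1.31 ± 0.09 and 3.09 ± 0.09. VAL3, the third VAL gene, was higher by 0.86 ± 0.19 in hid1 and 2.11 ± 0.18 in phyB, from 1.30 CPM in WT. SWN, a methyltransferase like CLF, was higher in hid1 by 0.83 ± 0.05, and RING1A in phyB by 2.67 ± 0.08. In WT from 24 h to 48 h CLF rose by 1.36 ± 0.07. Over the same interval BMI1B (-1.13 ± 0.09), RING1A (-1.0 ± 0.08) and LHP1 (-0.74 ± 0.06), all linked to Polycomb silencing, fell. Of the 16, 4 rose and 9 fell (median -0.36, all genes 0.07), beside 38% of all genes that fell and 82.3% called in either direction.

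Of 12 genes for proteins that bind to or act on the regulators, 10 were tested. At 48 h 5 were higher and 3 lower in hid1 (median 0.23), and 7 higher and 3 lower in phyB (median 0.79, or 0.11 with 4 higher and 4 lower with total counts), beside 79.2% and 89.4% of all genes called. ABI5, the bZIP factor that acts downstream of ABI3 in the ABA response, was higher by 2.93 ± 0.07 in hid1 and 4.05 ± 0.07 in phyB. The NF-YC genes, whose products pair with NF-YB proteins such as LEC1 and L1L, went both ways: NF-YC2 was higher by 1.66 ± 0.15 and 2.81 ± 0.14, NF-YC1 lower by -2.01 ± 0.17 and -1.88 ± 0.18, and NF-YC4 lower by -1.62 ± 0.10 and -3.04 ± 0.12 in hid1 and phyB. AIP2, a ubiquitin ligase that targets the ABI3 protein, was at 193 CPM in the phyB libraries labelled 12 h and 57.4 in those labelled 24 h, against 25.6 and 32.4 in WT. As labelled, it was higher in phyB by 2.92 ± 0.06 at 12 h and 0.83 ± 0.06 at 24 h. In hid1 at 24 h AIP2 was lower by -0.42 ± 0.06 (adjusted p = 1.68e-05), with NF-YC2 (-0.43 ± 0.12) and NF-YC4 (-0.36 ± 0.11), and 0 of the 10 were higher. Of all genes tested, 15.3% passed in either direction in that comparison.

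Of 12 other regulators of embryo identity, maturation and dormancy, 10 were tested, and at 48 h 6 were higher and 3 lower in hid1 (median 0.58), and 6 higher and 1 lower in phyB (median 1.34, or 0.66 with 6 higher and 4 lower with total counts), beside the same shares of all genes, 79.2% and 89.4%. HSFA9, a heat stress factor of maturing seeds, was at 0.872 CPM in WT, 3.67 in hid1 and 109 in phyB at 48 h (log2 differences 2.11 ± 0.28 and 6.99 ± 0.19). SOM was higher by 3.21 ± 0.09 and 4.53 ± 0.09, and the AP2 factor gene AIL5 by 1.81 ± 0.06 and 1.70 ± 0.06. The dormancy gene DOG1 was higher in phyB by 6.43 ± 0.54, from 0.0350 CPM in WT to 3.84. WRI1, which activates oil synthesis genes, was lower in hid1 by -0.93 ± 0.14 (2.56 against 4.88 CPM). In hid1 at 24 h AGL18, a MADS-domain gene, was the 1 of the 10 that passed (0.28 ± 0.09), beside 15.3% of all genes tested.

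**Figure D4:**
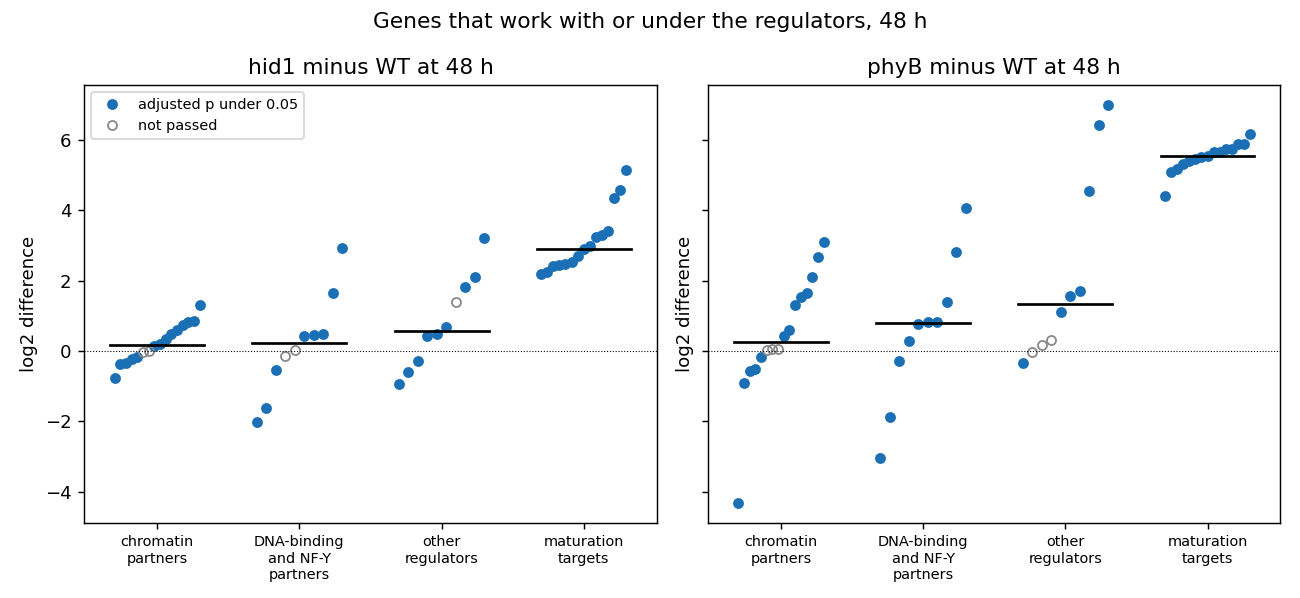
Log2 difference from WT at 48 h of each tested gene in 4 lists, for hid1 (left) and phyB (right), n = 3 per group; filled circles passed the test (adjusted p under 0.05), open circles did not, and black lines are list medians. The 15 maturation targets all lie above 0, with medians of 2.90 and 5.55, while the 16 chromatin partners spread on both sides, down to CLF at -4.31 in phyB.

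Some markers of seed tissues and of seedling growth differed between the genotypes at 48 h, and not all in the same direction. The summed level of 4 endosperm markers (EPR1, MAN7, ZOU and NCED6), mostly EPR1, was 665 to 747 CPM in WT at 48 h, 2634 to 2782 in hid1 and 14216 to 16689 in phyB. MAN7, higher in hid1 at 48 h by 2.16 ± 0.11, was lower in phyB by -0.63 ± 0.12, and ZOU, a regulator of the developing endosperm, was at 0 in WT, hid1 and phyB at 48 h. The 3 embryo epidermis markers (ATML1, PDF1 and PDF2) summed to 1237 to 1673 CPM in WT at 48 h, 709.6 to 781 in hid1 and 312 to 339.9 in phyB. In hid1 PDF1 alone carried this (-1.5 ± 0.11): 1 of the 3 was lower, 0 were higher and their median was -0.01, while in phyB all 3 were lower (median -0.38). The medians of all genes were -0.06 in hid1 and -0.24 in phyB, and 79.2% and 89.4% of all genes were called in either direction. PORA and PORB, which make chlorophyll precursors in seedlings, summed to 1024 to 1499 CPM in WT at 48 h, 3.59 to 9.90 in hid1 and 0.557 to 1.2 in phyB. The seed coat markers BAN and TT2 were at or near 0 in all groups, at no more than 0.117 CPM in sum. The part of these in the differences of the regulators was not tested, and in whole seeds fewer cells of a type and less RNA per cell cannot be told apart.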

How the data were processed

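The deposited count table holds raw counts of the authors, 1 column per library, with no normalization. The authors' FPKM table holds 1 mean per group and was used to compare levels between genes. For ABI3 in phyB and for VAL2 at 48 h, FPKM values of different groups are also given, without a test. Per the submitters' processing notes, fastp, HISAT2 2.1.0 and SAMtools 1.6 were run and TAIR10 was the build. The sources used here do not state how reads were assigned to genes, whether strand was used, or which annotation served. Totals were 14750212 to 26293148 counts per library, and 5633 of 33612 rows had no count.

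All 27 libraries entered 1 fit with edgeR 4.0.16 (limma 3.58.1, R 4.3.3), with filterByExpr (minimum count 10), TMM scaling, 1 coefficient for each of 9 groups and 18 residual degrees of freedom. Quasi-likelihood tests were two-sided, and p-values were adjusted over the 20465 genes tested within each of 19 comparisons. CPM use TMM-scaled library sizes, and log2 CPM a prior count of 0.5. Intervals are at 95%. DESeq2 1.42.0, RLE and total count scaling, no filter, only the groups compared, a replicate block, exchanged phyB labels and left-out libraries were alternatives.

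The regulators, the gene lists and the tests were chosen with earlier results of these data known. From each list up to 4 genes are named, those with the largest difference among genes that passed in the comparison described. For each regulator with at least 10 CPM on average the 4 genes with the highest correlation are named. Promoter bases and coordinates are from the RefSeq TAIR10.1 genome, and no coordinate of the files was combined with them. Replicate numbers were not used as pairs in the main fit.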

Additional observations from a re-analysis of the deposited data

Results flagged for a closer look

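Each value here was marked because the difference between a mutant and WT itself changed between times, by an edgeR interaction contrast over all genes tested with Benjamini-Hochberg adjustment (log2 units, ± SE, n = 3 per group). The hid1 difference changed from 24 h to 48 h by 2.86 ± 0.11 for ABI3 (adjusted p = 1.45e-17), by 2.16 ± 0.43 for FUS3 (adjusted p = 8.26e-05) and by 0.45 ± 0.09 for VAL1 (adjusted p = 9.86e-05). These 3 kept their direction and their call in all 19 alternatives run for each. The phyB difference changed from 24 h to 48 h by 3.32 ± 0.11 for ABI3 (adjusted p = 3.13e-19), 3.84 ± 0.38 for FUS3 (adjusted p = 7.32e-10), 0.79 ± 0.09 for VAL1 (adjusted p = 1.01e-08) and 0.34 ± 0.07 for VAL2 (adjusted p = 0.000209). These 4 rest in part on the phyB libraries labelled 24 h, whose labels are in doubt. With the labels exchanged they were 3.37, 3.63, 0.74 and 0.07, and the VAL2 value no longer passed (adjusted p = 0.399). With total counts VAL2 was at -0.11 (adjusted p = 0.239). From 12 h to 24 h it changed by 2.24 ± 0.31 for FUS3 (adjusted p = 5.4e-07) and by 0.35 ± 0.09 for VAL1 (adjusted p = 0.00116), between phyB libraries whose labels are both in doubt. With the labels exchanged these were 2.66 and 0.45, and with total counts the VAL1 value was -0.02 (adjusted p = 0.858).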

How the results depend on the processing

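Of 76 values (4 tested regulators in 19 comparisons) 49 passed the test. Of these, 31 kept their direction and call in every alternative run and 18 did not; of 27 that did not pass, 10 passed in some alternative. Scaling by total counts reversed values of VAL2 in phyB against WT at 24 h (-0.19) and 48 h (-0.30), in hid1 against phyB at 24 h (0.17) and 48 h (0.43), from 12 h to 24 h in WT (0.17) and hid1 (0.11), from 24 h to 48 h in phyB (-0.32) and in the change of the phyB difference from 24 h to 48 h (-0.11). It also reversed VAL1 in hid1 against phyB at 48 h (0.05), in hid1 from 12 h to 24 h (0.03), in phyB from 24 h to 48 h (-0.01) and in the change of the phyB difference from 12 h to 24 h (-0.02), and ABI3 in WT from 12 h to 24 h (0.12) and in phyB from 24 h to 48 h (-0.14). Exchanging the phyB labels reversed VAL2 against WT at 12 h (-0.07), in hid1 against phyB at 12 h (0.13), in phyB from 12 h to 24 h (0.27) and 24 h to 48 h (-0.11), and in the change of the phyB difference from 12 h to 24 h (0.38). In these cases the construction of the alternative moved the value, through the size factors or the label; the cause of the other lost calls was not tested. No value of FUS3 that passed was reversed. Of those that did not pass, phyB from 12 h to 24 h went from -0.21 to 0.21 with the labels exchanged. FUS3 in hid1 against phyB at 12 h went from 0.03 to -0.13 with total counts, and ran from -0.07 to 0.13 with 1 library left out.

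Leaving out 1 library moved the genes called for hid1 against WT at 12 h, 2741, to between 1787 (without the third hid1 library) and 2492, and at 24 h, 3137, to between 1989 (without the first WT library) and 2743; the other 17 counts stayed within 1.5 times. With total counts the share of calls that were higher moved by 10 percentage points or more in 12 comparisons. From 12 h to 24 h it went from 50.5 to 71.9% in WT and from 50.9 to 76% in hid1, and from 24 h to 48 h from 50.2 to 19.9% in phyB. It went from 55.2 to 37.9% for hid1 against WT at 24 h, and for phyB against WT from 46.7 to 56.7% at 12 h, 47.9 to 32.4% at 24 h and 44.8 to 29.1% at 48 h. For hid1 against phyB it went from 53.4 to 41.4%, 52.1 to 64.3% and 52 to 77% at these times, and for the change of the phyB difference from 49.2 to 29.9% (12 h to 24 h) and from 49.2 to 31.2% (24 h to 48 h). Replicate numbers were not taken to pair the libraries, since not every same-numbered pair correlated: over 108 pairs of libraries with the same number, correlations of their deviations ran from -0.412 to 0.420, and 31 were over 0.1, among them 15 of the 27 pairs within 1 time. A replicate block raised the counts of calls by 1.002 to 1.097 times and changed 1 of 76 values, VAL1 in hid1 from 24 h to 48 h (0.14, adjusted p = 0.0335). Over 9 group means in place of 27 libraries, 2 of the 4 genes most like VAL1, 1 of those most like VAL2 and 3 of those most like ABI3 were shared. Depth limits LEC1, LEC2 and L1L to values near a few reads.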
